A study of Homo sapiens with 24 samples.

Results

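CCN1, CCN2, ANKRD1, AMOTL2, AJUBA, LATS2, SMAD7, TGFBI and TGFB2 are 9 genes grouped here as YAP and TGF-beta responsive genes, and all 9 were found by symbol among the 14585 genes of the count table. RNA was sequenced from the human cell lines A549 (from a lung carcinoma) and Huh7 (from a hepatocellular carcinoma), both labelled wild type, with 3 replicates in each of 8 groups and 24 libraries in all. That label does not describe the tumour suppressor p53, which the authors state to be wild type in A549 and mutated in Huh7. In each line the groups were control cells and cells treated with extracts of the herbs Pulsatilla chinensis, Bupleurum chinense or Polyporus umbellatus. The series has no group in which YAP or TGF-beta signalling was itself altered, so the name of the group of genes rests on general knowledge. The extract dose, the exposure time and what the control cells of the sequenced samples received are not given in the sources used here.

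YAP and its relative TAZ are transcriptional coactivators that the Hippo kinase cascade keeps out of the nucleus. When they enter it, they act through the TEAD factors on genes such as CCN1, CCN2 and ANKRD1, and on genes of the Hippo pathway itself. TGF-beta ligands signal through serine/threonine kinase receptors to SMAD2 and SMAD3, which join SMAD4 on their target genes, and the inhibitory SMAD7 is induced as a brake. CCN2 and several other genes respond to both pathways, and both are known in liver and lung for their part in matrix deposition and wound repair.

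CCN1 (ENSG00000142871) lies on the plus strand of GRCh38 at chr1:85580761-85584589 and CCN2 (ENSG00000118523) on the minus strand at chr6:131948176-131951372. They encode secreted matricellular proteins of the CCN family. ANKRD1 (ENSG00000148677, chr10:90912096-90921087, minus strand) encodes an ankyrin repeat protein of the nucleus and the sarcomere. AMOTL2 (ENSG00000114019, chr3:134355347-134375479, minus strand) encodes an angiomotin that holds YAP at the cell junction, AJUBA (ENSG00000129474, chr14:22971177-22982551, minus strand) a LIM protein that binds the LATS kinases, and LATS2 (ENSG00000150457, chr13:20973036-21061586, minus strand) one of the kinases that phosphorylate YAP. TGFB2 (ENSG00000092969, chr1:218345336-218444619, plus strand) encodes a TGF-beta ligand, SMAD7 (ENSG00000101665, chr18:48919853-48950965, minus strand) the inhibitory SMAD, and TGFBI (ENSG00000120708, chr5:136028988-136063818, plus strand) a secreted matrix protein named for its induction by TGF-beta. All are protein-coding genes in the GRCh38 annotation, and each value is for the whole gene.

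RefSeq promoter windows of 300 bases, from 250 bases before to 50 bases after a gene's start, were at hand for 8 of the 9 genes in 12 windows (GRCh38.p14), and CCN1 has no window. The TEAD motif GGAATG, searched on both strands, occurred in 6 of the 12 windows and in windows of 6 genes, against 14% of all 35116 windows. CCN2 had 3 copies, where 0.128% of all windows had at least 3, and ANKRD1 had 2, where 1.37% had at least 2. The motif CAGACA, a core of SMAD-bound sequences, was in 5 of the 12 windows and in 16.9% of all windows. The AP-1-like motif TGANTCA was searched with any base at N, which is looser than the AP-1 site itself. It was in 1 of the 12 windows, that of ANKRD1, where it reads TGATTCA, and in 7.71% of all windows. The windows of SMAD7 and TGFBI held none of the 3 motifs. The 250 bases before the start are shown for CCN2 and ANKRD1, the genes with repeated TEAD motifs, and for TGFB2, the ligand, each on the strand of its gene with the matches to the 3 motifs in capitals.
CCN2, chr6:131951373-131951622: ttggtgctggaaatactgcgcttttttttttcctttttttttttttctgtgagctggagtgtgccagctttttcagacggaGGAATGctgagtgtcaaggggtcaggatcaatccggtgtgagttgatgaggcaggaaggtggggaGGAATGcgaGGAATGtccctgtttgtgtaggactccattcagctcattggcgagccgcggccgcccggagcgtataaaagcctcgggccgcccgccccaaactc
ANKRD1, chr10:90921088-90921337: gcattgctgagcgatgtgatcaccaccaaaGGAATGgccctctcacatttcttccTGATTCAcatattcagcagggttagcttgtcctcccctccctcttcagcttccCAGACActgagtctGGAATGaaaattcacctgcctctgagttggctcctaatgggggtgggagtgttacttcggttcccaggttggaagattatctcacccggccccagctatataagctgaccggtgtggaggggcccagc
TGFB2, chr1:218345086-218345335: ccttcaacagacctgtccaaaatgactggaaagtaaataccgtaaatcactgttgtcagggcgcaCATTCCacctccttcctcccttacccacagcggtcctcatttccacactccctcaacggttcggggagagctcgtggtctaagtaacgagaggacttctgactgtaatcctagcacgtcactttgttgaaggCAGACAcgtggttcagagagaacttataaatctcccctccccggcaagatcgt
In CCN2 the capitals begin 169, 104 and 95 bases before the start, so that the last pair lie close together. In ANKRD1 the TEAD motifs begin 220 and 128 bases before it, with the AP-1-like motif at 195 and CAGACA at 142. In TGFB2 the TEAD motif lies on the other strand, as CATTCC, at 185, and CAGACA at 53. A match describes the letters only, and no binding was measured in these samples.

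Levels are in CPM, a library's count of a gene scaled to a common library size. The libraries held between 6803704 and 24345541 counts, with a median of 10515192. At the median gene, the squared difference between 2 replicates was 2.74 to 5.36 times that of sampling noise. The exceptions were the 2 pairs that include replicate 2 of Huh7 P. umbellatus, at 13.3 and 17.6 times. The 5.36 was for replicates 1 and 3 of that group, and the next highest value was 4.29, in A549 P. umbellatus. Replicate 2 of Huh7 P. umbellatus stands apart from the others of its group. The results of the 9 genes against Huh7 control with P. umbellatus are given with and without it. The 8 hepatocyte markers summed to 20724 to 21178 CPM in Huh7 control and to 117 to 133 CPM in A549 control libraries. The 6 A549 markers analysed here summed to 11872 to 12578 CPM in A549 control and to 3983 to 4208 CPM in Huh7 control libraries. Of these 6, only KRT7 and KRT81 were at 0 in Huh7 control libraries, and the others were above 3 counts in at least 1 of them. NKX2-1 and SFTPC, lung markers in the same list, were not analysed here. No source says that the replicates were separate cultures, so the p-values measure the spread between these libraries, which may be technical. In bulk RNA, fewer expressing cells and less RNA per cell cannot be told apart.

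In control cells the genes were set very differently in the lines. Per transcript length, in CPM per kb of the canonical transcript, TGFBI was the highest of the 9 in A549 at 356 and ANKRD1 the lowest at 1.18. In Huh7 CCN2 led at 168, followed by TGFBI at 139, and TGFB2 was lowest at 6.84. CCN1 was at 18.2 in A549 and 29.6 in Huh7, AMOTL2 at 33.0 and 27.1, AJUBA at 28.4 and 54.4, LATS2 at 8.45 and 13.3, and SMAD7 at 6.18 and 11.2. In the order of A549 levels, the means of AMOTL2 and AJUBA, of CCN1 and TGFB2, and of CCN2 and SMAD7 differed by less than the larger SD of the pair, and in Huh7 so did those of ANKRD1 and LATS2. Which transcripts carried the counts is not known, so the lengths are those of the annotation.

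**Figure D1:**
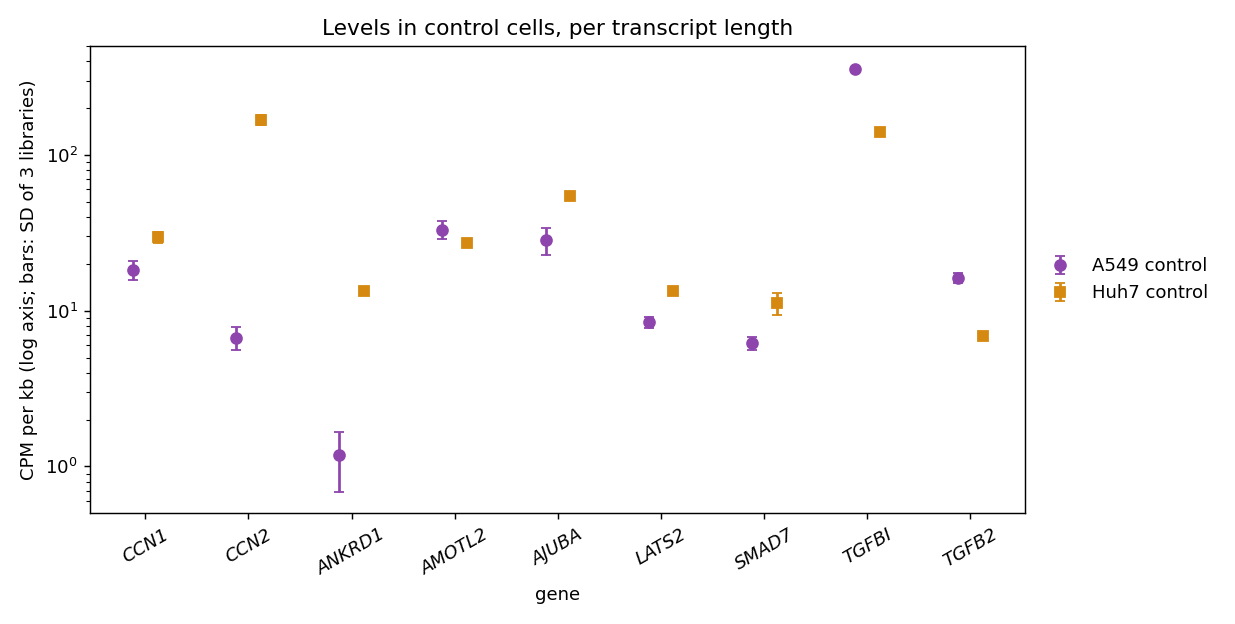
Mean level of each gene in the 3 control libraries of A549 (circles) and Huh7 (squares), in CPM per kb of canonical transcript on a log axis, with bars for the SD. CCN2 and ANKRD1 sit far higher in Huh7, and TGFBI and TGFB2 higher in A549.

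The same genes differed between the control groups in the edgeR quasi-likelihood test, 3 higher and 6 lower in A549 (70.7% of all genes differed, 33.9% upwards and 36.8% downwards). With CPM scaled over all 24 libraries, CCN2 measured 15.7 ± 2.59 CPM (SD, n = 3) in A549 and 393.1 ± 31.3 CPM (SD, n = 3) in Huh7. The log2 difference was -4.64 ± 0.11 (SE, edgeR adjusted p = 1.3e-19). ANKRD1 was lower in A549 by a log2 difference of -3.44 ± 0.21 (SE, edgeR adjusted p = 8.71e-13). TGFBI and TGFB2 were higher in A549, with log2 differences of 1.35 ± 0.06 (SE, edgeR adjusted p = 2.15e-15) and 1.24 ± 0.10 (SE, edgeR adjusted p = 1.43e-10). AJUBA (-0.93), SMAD7 (-0.85), CCN1 (-0.70) and LATS2 (-0.65) were lower in A549, with edgeR adjusted p-values of 1.12e-08, 4.72e-06, 1.6e-05 and 1.68e-07. The smallest difference was that of AMOTL2, 0.29 ± 0.11 (SE, edgeR adjusted p = 0.0229), and this call was lost on leaving out any of 4 of the 6 control libraries (adjusted p = 0.0556 to 0.147). The lines differ in tissue, donor and genotype, and these cannot be told apart.

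With the extracts, the members that passed the edgeR test against control rose and none fell. The 9 genes were chosen with earlier results of these data known, so the shares over all genes are given for scale and test nothing about the group. In A549, 6 of the 9 rose with P. chinensis, where 15.8% of all genes rose and 32.8% changed in either direction. With B. chinense 5 rose against 13.1% of all genes (28.1% either way), and with P. umbellatus 4 rose against 13.4% (28.2% either way). In Huh7, 8 rose with P. chinensis against 10.5% of all genes (20.9% either way). Without Huh7 P. umbellatus replicate 2 there were also 8, where 2306 of all 13898 genes rose and 34.8% differed either way. None passed with B. chinense (1.28% of all genes differed, 0.519% upwards and 0.757% downwards). There, 5 of the 9 had an unadjusted edgeR p under 0.05, as did 1709 of all 13875 genes. DESeq2 called 1 higher, voom 3, the 6 libraries alone 3, and the fit without Huh7 P. umbellatus replicate 2 called 2, in which 6.54% of all genes differed. With P. umbellatus 5 rose in Huh7 against 19.3% of all genes (37% either way), and without replicate 2 there were also 5, with AMOTL2 in the place of CCN2, where 32.8% of all genes differed. The 6 libraries of that comparison alone called 1 of the 9 higher. For DESeq2, voom and the 6 libraries alone the share of all genes called is not given here, so those counts cannot be set against it. The comparisons within a line share their control libraries, so they are not independent of each other.

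The median log2 fold change of the 9 genes in A549 was 0.33 for P. chinensis, against 0.42 for B. chinense and 0.23 for P. umbellatus, and in Huh7 it was 0.63, 0.17 and 0.19 in the same order. The median over all genes tested lay between -0.01 and 0.03 in these comparisons. Groups of 3 libraries did not overlap, with the treated group higher, for 7, 5 and 6 of the 9 genes in A549 (22.6%, 19.1% and 19.9% of all genes), and for 8, 6 and 4 in Huh7 (26.7%, 13.7% and 24.8%).

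**Figure D2:**
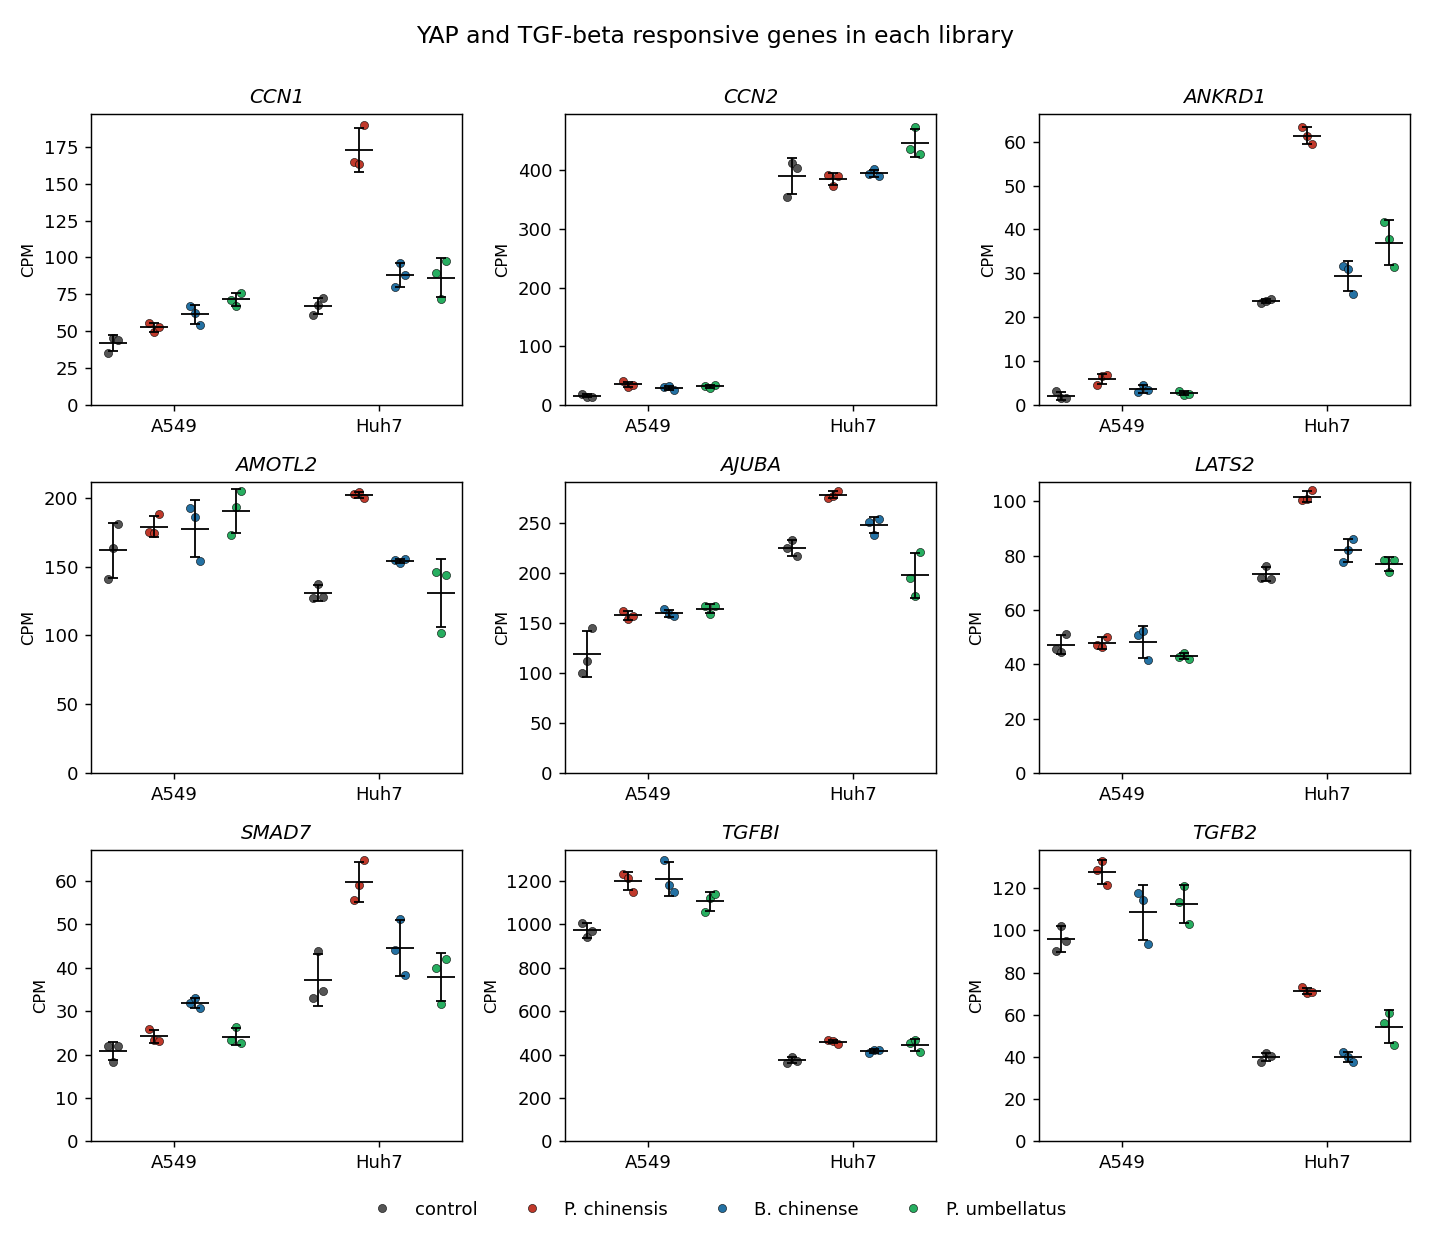
Each panel shows 1 gene, with CPM on a linear axis from 0, a point for each of the 24 libraries, and the mean with the SD of 3 libraries for each group. CCN1, ANKRD1 and TGFB2 of Huh7 cells stand clear of control with P. chinensis, while CCN2 stays between 355 and 474 CPM in all Huh7 libraries.

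CCN1 rose in A549 with each herb and in Huh7 most with P. chinensis. Its A549 control libraries held 35.5, 45.5 and 44.1 CPM, P. chinensis libraries 55.6, 49.3 and 52.9, B. chinense libraries 67.3, 62.5 and 54.4 and P. umbellatus libraries 71.4, 67.0 and 76.1. No treated A549 library fell to the level of a control library. The log2 fold changes were 0.33 ± 0.10 (SE, edgeR adjusted p = 0.024) for P. chinensis, 0.55 ± 0.10 (SE, edgeR adjusted p = 0.00101) for B. chinense and 0.77 ± 0.10 (SE, edgeR adjusted p = 5.33e-05) for P. umbellatus. The first of these was lost on leaving out control replicate 1 (0.23, adjusted p = 0.0958), P. chinensis replicate 1 (0.29, 0.0826) or replicate 3 (0.32, 0.0586).

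In Huh7 the CCN1 level was 61.3, 67.4 and 72.2 CPM in control and 165, 163 and 189.8 CPM with P. chinensis, a 2.57-fold rise and a log2 fold change of 1.36 ± 0.12 (SE, edgeR adjusted p = 7.19e-06). All P. chinensis libraries lay far above the highest control library. With B. chinense CCN1 held 79.7, 96.3 and 88.0 CPM, all above control, but the log2 fold change of 0.39 ± 0.12 (SE, edgeR adjusted p = 0.146) did not pass. With P. umbellatus it held 89.6, 72.0 and 97.4 CPM, of which replicate 2 was within the control range, and the log2 fold change was 0.37 ± 0.12 (SE, edgeR adjusted p = 0.0274), or 0.48 (adjusted p = 0.00288) without that replicate. Leaving out any of 7 other Huh7 libraries lost the call (adjusted p = 0.0556 to 0.101). Without replicate 2 the B. chinense call was gained, at 0.39 and an adjusted p of 0.0181.

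CCN2, the other CCN gene of the group and a classical readout of both YAP and TGF-beta, rose in A549 with each herb. In A549 its libraries held 19.0, 14.2 and 14.3 CPM in control, 40.5, 30.9 and 33.7 in P. chinensis libraries, 29.9, 32.7 and 25.7 in B. chinense libraries and 32.3, 29.3 and 33.5 in P. umbellatus libraries. Every treated library exceeded the control libraries, and the rises of 2.21, 1.87 and 2.002 fold came with log2 fold changes of 1.14 ± 0.14 (SE, edgeR adjusted p = 1.96e-05), 0.90 ± 0.14 (SE, edgeR adjusted p = 0.00026) and 1.002 ± 0.14 (SE, edgeR adjusted p = 8.79e-05).

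In Huh7, where CCN2 was abundant, control libraries held 355, 412 and 404 CPM, P. chinensis libraries 391, 373 and 389 CPM and B. chinense libraries 394, 402 and 389.9 CPM. The groups overlapped, and the log2 fold changes were -0.02 with P. chinensis (95% interval -0.17 to 0.13) and 0.02 with B. chinense (95% interval -0.13 to 0.17), with adjusted p-values of 0.863 and 0.962 in edgeR. With P. umbellatus CCN2 held 437, 474 and 429 CPM, a log2 fold change of 0.19 ± 0.07 (SE, edgeR adjusted p = 0.0419) that became 0.15 (adjusted p = 0.0716) without replicate 2 and was lost on leaving out any of 10 of the 12 libraries (adjusted p = 0.059 to 0.172).

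The ratio of CCN1 to CCN2 counts within a library does not depend on how libraries were scaled. In A549 it was 1.87, 3.21 and 3.09 in control and 1.37, 1.60 and 1.57 with P. chinensis, where every treated library was below control. For B. chinense it was 2.25, 1.91 and 2.11 and for P. umbellatus 2.21, 2.29 and 2.27, in both cases overlapping the control range through control replicate 1. In Huh7 the ratio was 0.173, 0.164 and 0.178 in control and 0.421, 0.438 and 0.487 with P. chinensis, so that it moved upwards there. It was 0.202, 0.240 and 0.226 for B. chinense and 0.205, 0.152 and 0.227 for P. umbellatus. An exact permutation test of 3 against 3 libraries cannot reach p below 0.1, so these ratios are given as values only.

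ANKRD1, which encodes a nuclear and sarcomeric ankyrin repeat protein and whose promoter carries 2 TEAD motifs, was scarce in A549. Control libraries had 25, 17 and 16 counts, and P. chinensis libraries 39, 65 and 73 counts. In CPM these were 3.17, 1.67 and 1.54 against 4.57, 6.49 and 6.75, without overlap, and the log2 fold change was 1.42 ± 0.32 (SE, edgeR adjusted p = 0.00234). With B. chinense (2.98, 4.64 and 3.36 CPM) and P. umbellatus (3.14, 2.30 and 2.48 CPM) the groups overlapped control through control replicate 1. Their log2 fold changes of 0.75 ± 0.33 (SE, edgeR adjusted p = 0.0878) and 0.32 ± 0.33 (SE, edgeR adjusted p = 0.49) did not pass, and the first did so without that control library (1.10, adjusted p = 0.0209).

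In Huh7 the same gene held 23.1, 23.7 and 24.2 CPM in control and 63.3, 61.4 and 59.5 with P. chinensis, a 2.58-fold rise with a log2 fold change of 1.37 ± 0.11 (SE, edgeR adjusted p = 5.71e-06). It held 41.6, 37.7 and 31.5 CPM with P. umbellatus, a log2 fold change of 0.64 ± 0.11 (SE, edgeR adjusted p = 0.00224), and 0.62 (adjusted p = 0.00224) without replicate 2. With B. chinense its libraries were at 31.8, 30.9 and 25.4 CPM, above control in each, with a log2 fold change of 0.31 ± 0.11 (SE, edgeR adjusted p = 0.272) that did not pass. In Huh7 the P. chinensis log2 fold changes of ANKRD1 and CCN1 differed by less than the SE of either.

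**Figure D3:**
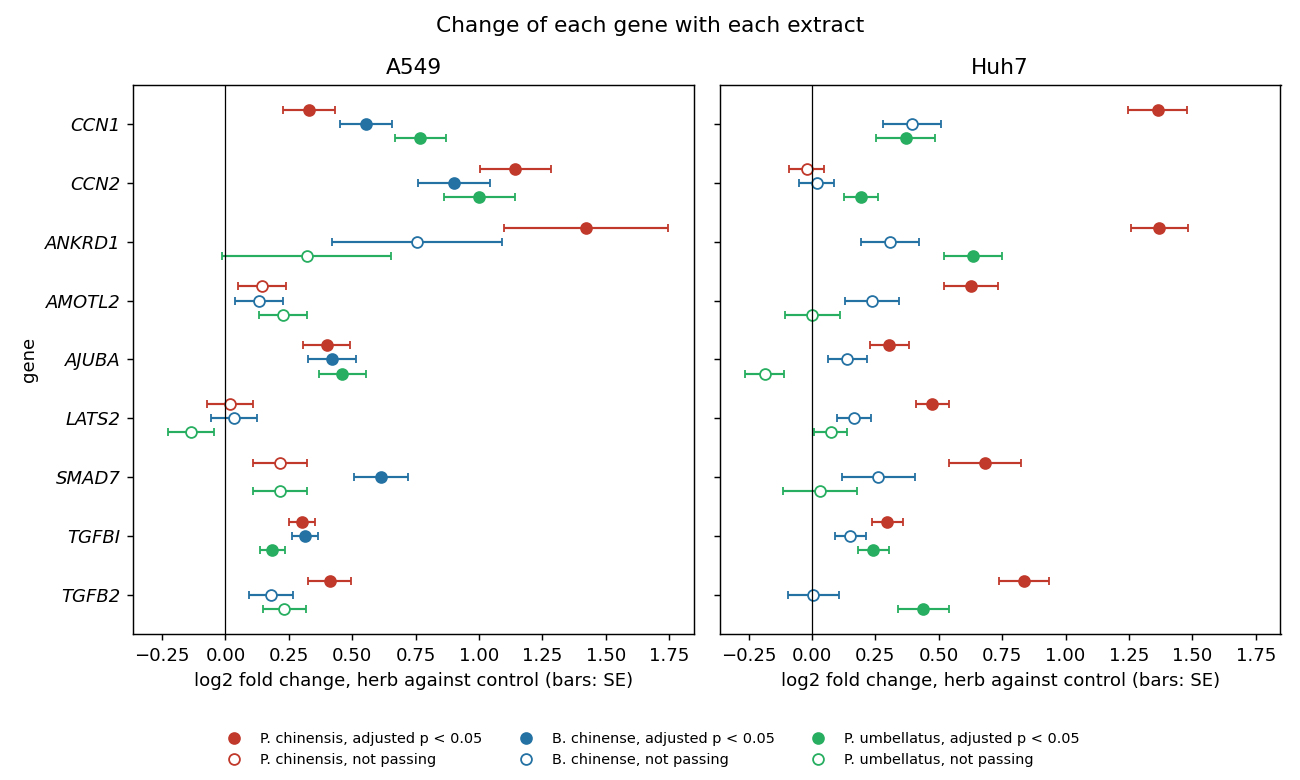
Log2 fold change of each gene against control, with A549 on the left and Huh7 on the right, a colour for each herb, bars for the SE, and filled points where the edgeR adjusted p was below 0.05. CCN2 is near 1 for each herb in A549 and between -0.02 and 0.19 in Huh7, and 8 of the 9 P. chinensis points of Huh7 are filled and above 0.

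Among the genes of the Hippo pathway, AJUBA rose in A549 with each herb, while AMOTL2 and LATS2 passed the edgeR test with P. chinensis in Huh7. AJUBA held 101, 112 and 145 CPM in A549 control and 163, 154 and 157 CPM with P. chinensis. In B. chinense libraries it held 164, 159 and 157 CPM and in P. umbellatus libraries 167, 159 and 168 CPM. All treated libraries were above the highest control library, and the log2 fold changes were 0.40 ± 0.09 (SE, edgeR adjusted p = 0.00454), 0.42 ± 0.09 (SE, edgeR adjusted p = 0.00402) and 0.46 ± 0.09 (SE, edgeR adjusted p = 0.00189). In Huh7 control AJUBA held 225, 234 and 217 CPM, and with P. chinensis 276, 277 and 282, a log2 fold change of 0.30 ± 0.08 (SE, edgeR adjusted p = 0.0137) that was lost on leaving out control replicate 3 or any P. chinensis replicate (adjusted p = 0.0518 to 0.0651). With B. chinense its log2 fold change was 0.14 (edgeR adjusted p = 0.519), and with P. umbellatus, at 195, 177 and 222 CPM, it was -0.19 (edgeR adjusted p = 0.0747), or -0.11 (0.16) without replicate 2. It was called lower there by DESeq2 (-0.21, adjusted p = 0.0346), in edgeR at a mean above 50 counts (-0.22, 0.0417) and without P. umbellatus replicate 3 (-0.28, 0.00439).

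AMOTL2, the angiomotin, held 127, 137 and 128 CPM in Huh7 control libraries and 203, 204 and 199.96 CPM with P. chinensis. The groups were far apart, with a log2 fold change of 0.63 ± 0.11 (SE, edgeR adjusted p = 0.00136). With B. chinense it held 155, 153 and 155 CPM, a narrow range above control, with a log2 fold change of 0.24 ± 0.11 (SE, edgeR adjusted p = 0.398), and without the P. umbellatus library that stands apart this passed (0.24, adjusted p = 0.00531). With P. umbellatus the libraries were at 146, 102 and 144 CPM, replicate 2 being the low one, and the log2 fold change of 0.00 (adjusted p = 0.996) became 0.15 (0.0285) without it. In A549 control, AMOTL2 held 141, 164 and 181 CPM, and no herb passed in edgeR, with log2 fold changes of 0.14, 0.13 and 0.23 (edgeR adjusted p = 0.282, 0.347 and 0.0932). The P. umbellatus change passed in DESeq2 (0.24, adjusted p = 0.0467) and without control replicate 3 (0.31, 0.0337) or P. umbellatus replicate 1 (0.29, 0.0491).

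LATS2, the kinase, held 71.9, 76.1 and 71.6 CPM in Huh7 control and 100.4, 101 and 104 CPM with P. chinensis, a 1.39-fold rise with a log2 fold change of 0.48 ± 0.06 (SE, edgeR adjusted p = 0.000292). Its log2 fold changes with B. chinense and P. umbellatus in Huh7 were 0.17 and 0.07 (edgeR adjusted p = 0.311 and 0.408), the second 0.10 (0.207) without P. umbellatus replicate 2. In A549 all 12 libraries lay between 41.7 and 52.3 CPM, and those with P. umbellatus were below all control libraries. The log2 fold changes there were 0.02 (95% interval -0.18 to 0.21), 0.03 (-0.16 to 0.23) and -0.14 (-0.33 to 0.06), so that changes as large as the Huh7 rise lie outside these intervals.

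Of the TGF-beta genes, the ligand TGFB2 rose with P. chinensis in both lines. Its libraries held 37.7, 41.7 and 40.2 CPM in Huh7 control and 73.0, 70.4 and 70.7 CPM with P. chinensis, a 1.79-fold rise with a log2 fold change of 0.84 ± 0.10 (SE, edgeR adjusted p = 9.82e-05). With P. umbellatus it held 55.9, 61.1 and 45.7 CPM (0.44 ± 0.10 SE, edgeR adjusted p = 0.00666), and 0.35 (adjusted p = 0.0107) without replicate 2. That TGFB2 call was lost with the 6 libraries compared alone (0.40, edgeR adjusted p = 0.073). With B. chinense its level of 42.5, 39.8 and 37.7 CPM overlapped control (0.01, 95% interval -0.21 to 0.22).

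In A549, where the ligand was higher, TGFB2 held 90.2, 102 and 95.2 CPM in control and 129, 133 and 122 CPM with P. chinensis, without overlap, and the log2 fold change was 0.41 ± 0.08 (SE, edgeR adjusted p = 0.00163). B. chinense libraries were at 118, 114 and 93.5 CPM and P. umbellatus libraries at 114, 121 and 103 CPM. Their log2 fold changes of 0.18 ± 0.09 (SE, edgeR adjusted p = 0.137) and 0.23 ± 0.08 (SE, edgeR adjusted p = 0.0523) did not pass. The second passed in DESeq2, with RLE scaling, with the replicate block, with no filter, at a mean above 50 counts and with the 6 libraries alone (adjusted p = 0.0257 to 0.0451), and without any 1 of 4 libraries (adjusted p = 0.0197 to 0.0478), but not in voom (0.0732).

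SMAD7, the inhibitory SMAD, rose with B. chinense in A549 and with P. chinensis in Huh7. In A549 its libraries held 22.0, 18.4 and 22.0 CPM in control and 32.0, 33.0 and 30.7 CPM with B. chinense, without overlap, a 1.53-fold rise with a log2 fold change of 0.61 ± 0.11 (SE, edgeR adjusted p = 0.000556). With P. chinensis (26.0, 23.5 and 23.0 CPM) and P. umbellatus (23.3, 26.4 and 22.7 CPM) it lay just above control, with log2 fold changes of 0.21 and 0.21 (edgeR adjusted p = 0.144 and 0.153). In Huh7 it held 33.0, 43.9 and 34.7 CPM in control and 55.6, 59.0 and 64.8 CPM with P. chinensis (0.68 ± 0.14 SE, edgeR adjusted p = 0.0046). Neither B. chinense (0.26) nor P. umbellatus (0.03) passed there, with edgeR adjusted p-values of 0.518 and 0.883, and the P. umbellatus value was 0.15 (0.462) without replicate 2.

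TGFBI, the most abundant of the 9 genes in A549, rose by small amounts. It held 1007, 940.1 and 971 CPM in A549 control, 1232, 1216 and 1151 in P. chinensis libraries, 1296, 1181 and 1148 in B. chinense libraries and 1057, 1121 and 1139 in P. umbellatus libraries. All treated libraries were above control, and the log2 fold changes were 0.30 ± 0.05 (SE, edgeR adjusted p = 0.000324), 0.31 ± 0.05 (SE, edgeR adjusted p = 0.000322) and 0.19 ± 0.05 (SE, edgeR adjusted p = 0.0131). The last was lost without control replicate 2 (0.16, adjusted p = 0.0602) or P. umbellatus replicate 3 (0.16, 0.0568). In Huh7 it held 363, 391 and 371 CPM in control and 468, 463 and 451 with P. chinensis (0.30 ± 0.06 SE, edgeR adjusted p = 0.00448). The log2 fold change with P. umbellatus was 0.24 ± 0.06 (SE, edgeR adjusted p = 0.0104), or 0.20 (0.00875) without replicate 2, and with B. chinense it was 0.15 ± 0.06 (SE, edgeR adjusted p = 0.326). With the 6 libraries compared alone, the P. umbellatus change did not pass (0.21, edgeR adjusted p = 0.118) and the B. chinense change did (0.15, 0.0344).

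Set against each other in A549, the herbs differed in 1 of these genes in edgeR. None of the 9 passed between P. chinensis and B. chinense (1.45% of all genes differed, 0.447% upwards and 1% downwards) or between B. chinense and P. umbellatus (0.0513% of all genes differed, 0.022% upwards and 0.0293% downwards). In the first, 4 of the 9 had an unadjusted edgeR p under 0.05, as did 1915 of all 13633 genes. In the second, 3 of the 9 had such a p, as did 1003 of all 13633 genes. Between P. chinensis and B. chinense, DESeq2 called SMAD7 lower with P. chinensis (-0.41). DESeq2 called none of the 9 between B. chinense and P. umbellatus. Between P. chinensis and P. umbellatus (3.01% of all genes differed, 0.814% upwards and 2.19% downwards) CCN1 was lower with P. chinensis, by a log2 difference of -0.44 ± 0.10 (SE, edgeR adjusted p = 0.0295), and this was lost on leaving out any of the 6 libraries compared. For ANKRD1 that difference was 1.10 ± 0.31 (SE, edgeR adjusted p = 0.0628), and it passed in DESeq2 (1.15, adjusted p = 0.0314), in voom (1.14, 0.036) and without control replicate 1 (1.10, 0.0366). For CCN2 the 95% intervals were -0.05 to 0.53 between P. chinensis and B. chinense and -0.14 to 0.43 between P. chinensis and P. umbellatus.

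In Huh7 the herbs separated. Against B. chinense, 5 of the 9 were higher with P. chinensis (7.81% of all genes differed, 3.89% upwards and 3.91% downwards), namely ANKRD1 (1.06), CCN1 (0.97), TGFB2 (0.83), AMOTL2 (0.39) and LATS2 (0.31). Without P. umbellatus replicate 2 they were 8, where the share of all genes that differed was 20.4%, and without any 1 replicate of P. chinensis, or without B. chinense replicate 1 or 2, they were 3. Against P. umbellatus, 7 were higher and CCN2 was lower with P. chinensis (35.4% of all genes differed, 16.5% upwards and 18.8% downwards). Those 7 were CCN1 (0.99 ± 0.12 SE, edgeR adjusted p = 0.000248), ANKRD1, AMOTL2, AJUBA, LATS2, SMAD7 and TGFB2, the last at 0.40 (edgeR adjusted p = 0.00934), and CCN2 at -0.21 ± 0.07 (SE, edgeR adjusted p = 0.028) was lost without any 1 replicate of P. chinensis. Between B. chinense and P. umbellatus (27.3% of all genes differed, 12.6% upwards and 14.6% downwards) AJUBA was higher (0.32) and TGFB2 lower (-0.43) with B. chinense, and the latter was lost without B. chinense replicate 3 (-0.37, adjusted p = 0.06).

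The difference of a response between the lines was tested as the interaction of herb and line in a fit of all 24 libraries and 12924 genes. For CCN2 the response in A549 exceeded that in Huh7 with each herb, by 1.22 ± 0.15 (SE, edgeR adjusted p = 2.61e-06) on the log2 scale for P. chinensis, 0.93 ± 0.15 (SE, edgeR adjusted p = 0.000163) for B. chinense and 0.90 ± 0.15 (SE, edgeR adjusted p = 9.73e-05) for P. umbellatus. For CCN1 it was smaller in A549 with P. chinensis, the difference being -0.98 ± 0.16 (SE, edgeR adjusted p = 0.000127), and larger with P. umbellatus, 0.48 ± 0.16 (SE, edgeR adjusted p = 0.0246), the latter lost without Huh7 P. umbellatus replicate 2 (0.32, adjusted p = 0.1) and without 4 other libraries (adjusted p = 0.0571 to 0.0976). With P. chinensis LATS2 (-0.40 ± 0.11 SE, edgeR adjusted p = 0.01) and AMOTL2 (-0.43 ± 0.15 SE, edgeR adjusted p = 0.0482) also responded less in A549, the second close to the threshold and lost without any 1 of 12 libraries (adjusted p = 0.0521 to 0.143). AJUBA responded more in A549 with P. umbellatus, by 0.73 ± 0.13 (SE, edgeR adjusted p = 0.000235).

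In all, 1 gene was higher and 3 were lower in A549 for P. chinensis (19.6% of all genes differed, 10.3% upwards and 9.3% downwards). For B. chinense 1 was higher (11.6% of all genes differed, 5.8% upwards and 5.8% downwards), and for P. umbellatus 3 were higher (34.4% of all genes differed, 19.1% upwards and 15.3% downwards). Without Huh7 P. umbellatus replicate 2 these were 1 and 5, 1, and 2. The shares of all genes in that fit are not given here, so these counts cannot be set against them. The interaction for ANKRD1 with P. chinensis was 0.15 with a 95% interval of -0.45 to 0.74, and for TGFBI it was 0.06 with an interval of -0.11 to 0.22. SMAD7 had interactions of -0.42 with P. chinensis and 0.40 with B. chinense, neither passing (edgeR adjusted p = 0.123 and 0.185), and TGFB2 had -0.37 with P. chinensis (edgeR adjusted p = 0.0543).

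**Figure D4:**
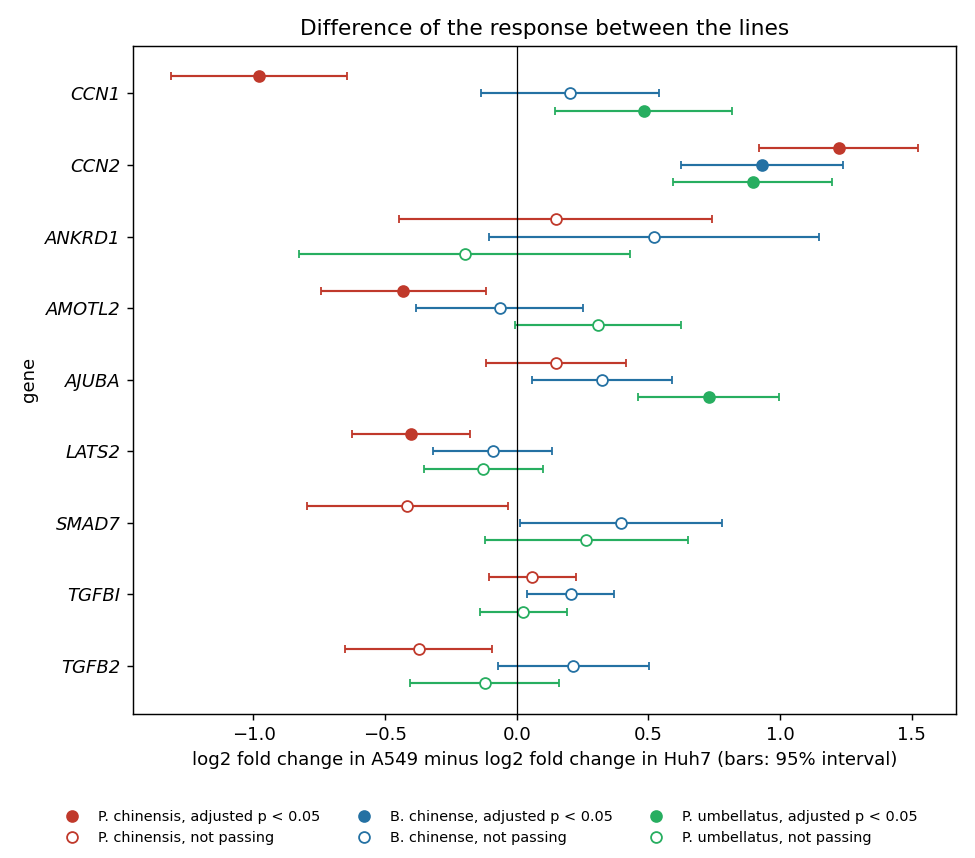
Response in A549 minus response in Huh7 on the log2 scale for each gene and herb, with bars for the 95% interval and filled points where the edgeR adjusted p was below 0.05. The 3 points of CCN2 lie near or above 0.9, and the P. chinensis point of CCN1 lies at -0.98.

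YAP1 and WWTR1, which encodes TAZ, did not pass with any herb in either line, with log2 fold changes from -0.19 to 0.14 for YAP1 and from -0.12 to 0.29 for WWTR1. Of the 8 genes for YAP, TAZ, the TEAD factors and the VGLL proteins in A549, 1 rose and 2 fell with P. chinensis, 1 rose and 2 fell with B. chinense, and 1 rose and 3 fell with P. umbellatus, and in Huh7 0 rose and 0 fell with P. chinensis, 0 rose and 0 fell with B. chinense, and 1 rose and 2 fell with P. umbellatus. VGLL4, which competes with YAP for TEAD factors, rose in A549 with each herb (0.43 ± 0.07, 0.42 ± 0.08 and 0.39 ± 0.07 on the log2 scale, SE), and TEAD4 fell there with P. chinensis (-0.31 ± 0.11) and P. umbellatus (-0.37 ± 0.11). With P. umbellatus in Huh7, TEAD1 rose (0.47 ± 0.08) and TEAD3 and TEAD2 fell (-0.49 ± 0.13 and -0.47 ± 0.13). Without replicate 2 these were 0.38, -0.33 and -0.30, and the list's counts were again 1 and 2. VGLL3, another TEAD cofactor, fell in A549 with B. chinense (-0.22) and P. umbellatus (-0.25). The list medians ran from -0.13 to -0.00.

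Of 19 kinases, scaffolds and other regulators of the Hippo cascade in A549, 5 rose and 3 fell with P. chinensis, 4 rose and 2 fell with B. chinense, and 7 rose and 2 fell with P. umbellatus. In Huh7, 1 rose and 2 fell with P. chinensis, 0 rose and 0 fell with B. chinense, and 8 rose and 1 fell with P. umbellatus, and without replicate 2 the last counts were 7 and 1. LIMD1, a LIM protein related to AJUBA, fell in A549 with each herb (-0.37 ± 0.06, -0.23 ± 0.06 and -0.23 ± 0.06) and in Huh7 with P. chinensis (-0.25 ± 0.07), while AJUBA rose in each of these comparisons. FRMD6, a FERM protein upstream of the kinases, rose in A549 with P. chinensis (0.85 ± 0.14) and fell in Huh7 (-0.60 ± 0.17). MAP4K4, a kinase that acts on LATS, rose in A549 with P. chinensis (0.40) and B. chinense (0.29), and MOB1A, a LATS cofactor, fell there with P. chinensis (-0.23). Of the WW domain scaffolds, WWC3 rose in A549 with B. chinense (0.36) and P. umbellatus (0.37), while WWC1 fell with both (-0.27 and -0.17) and rose in Huh7 with P. chinensis (0.34). With P. umbellatus in Huh7 the scaffold SAV1 and the kinase STK3 rose (0.62 and 0.54), both lost without replicate 2 (adjusted p = 0.0969 and 0.0605), and the kinase TAOK2 fell (-0.66, -0.49 without it). The medians of this list ran from -0.02 to 0.22.

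Other genes commonly listed as targets of YAP and TEAD did not share a direction. Of 16 tested in A549, 5 rose and 4 fell with P. chinensis, 5 rose and 3 fell with B. chinense, and 7 rose and 3 fell with P. umbellatus, and of 13 tested in Huh7, 5 rose and 2 fell with P. chinensis, 2 rose and 0 fell with B. chinense, and 5 rose and 1 fell with P. umbellatus (5 and 1 without replicate 2). MYOF, a membrane repair protein, rose in all 6 comparisons, by 0.70 ± 0.03, 0.71 ± 0.03 and 0.77 ± 0.03 in A549 and by 1.66 ± 0.10, 0.58 ± 0.10 and 1.17 ± 0.10 in Huh7. GADD45B, a stress-inducible gene, rose in Huh7 from a mean of 9.42 to 59.2 CPM with P. chinensis (2.64 ± 0.13). CCDC80 and IGFBP3, secreted proteins of this list, fell in A549 with each herb (-0.61 ± 0.08, -0.78 ± 0.08 and -0.80 ± 0.08 for CCDC80), while CCN1 and CCN2 rose. NT5E, an ectonucleotidase, rose in A549 with P. chinensis (0.52) and P. umbellatus (0.70) and fell in Huh7 with P. chinensis (-0.73). PTPN14, a phosphatase that binds YAP, rose in A549 with B. chinense (0.45). In Huh7 ASAP1 fell with P. chinensis (-0.33) and ARHGEF17 with P. umbellatus (-0.86, -0.62 without replicate 2). The medians of the list ran from 0.01 to 0.29.

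Of the other CCN genes, 2 were tested in A549 and 1 in Huh7. In A549, 1 rose and 0 fell with P. chinensis, 1 rose and 0 fell with B. chinense, and 0 rose and 0 fell with P. umbellatus, and CCN6, the 1 tested in Huh7, did not pass with any herb in edgeR (unadjusted p = 0.0935 to 0.517). CCN3 was the one that rose, from 1 to 14 counts per library in control to 18 to 32 with P. chinensis and 13 to 31 with B. chinense, and it was at 0 in all Huh7 control libraries. CCN5 was not called in A549. The medians ran from 0.28 to 1.09, over so few genes.

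Among 15 TGF-beta ligands, latency proteins and receptors in A549, 3 rose and 2 fell with P. chinensis, 3 rose and 1 fell with B. chinense, and 4 rose and 2 fell with P. umbellatus, and among 13 in Huh7, 0 rose and 3 fell with P. chinensis, 0 rose and 0 fell with B. chinense, and 3 rose and 2 fell with P. umbellatus (3 and 2 without replicate 2). TGFBR2, the type II receptor, rose in A549 with each herb (0.26 ± 0.05, 0.25 ± 0.05 and 0.36 ± 0.05). In Huh7 it fell with P. chinensis (-0.22 ± 0.06) and rose with P. umbellatus (0.27 ± 0.06). TGFB1, the other main ligand, rose in A549 with P. umbellatus (0.27 ± 0.06) and fell in Huh7 with it (-0.69 ± 0.13, -0.52 without replicate 2), where TGFB2 rose. TGFBR1, the type I receptor, rose in Huh7 with P. umbellatus (0.45 ± 0.13, 0.25 without replicate 2) and passed in no other of the 6 comparisons. TGFBR3, a coreceptor, rose in A549 (0.45, 0.45 and 0.47 with the 3 herbs) and fell in Huh7 with P. chinensis (-0.74). ACVR2B, an activin receptor, fell with P. chinensis in A549 (-0.28) and Huh7 (-0.40) and with P. umbellatus in A549 (-0.22). With P. umbellatus in Huh7 its relative ACVR2A rose (0.54, 0.41 without replicate 2) and LTBP3 fell (-1.13, -0.82 without it). LTBP2, a latent TGF-beta binding protein, rose in A549 with each herb (0.97 ± 0.16, 0.55 ± 0.16 and 0.69 ± 0.16), and INHBB, an activin subunit, fell there with each (-0.94 ± 0.07, -0.68 ± 0.07 and -0.41 ± 0.07). The medians of this list ran from -0.08 to 0.08.

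Of 14 SMADs and SMAD corepressors in A549, 2 rose and 4 fell with P. chinensis, 3 rose and 2 fell with B. chinense, and 3 rose and 4 fell with P. umbellatus, and of 13 in Huh7, 2 rose and 4 fell with P. chinensis, 0 rose and 0 fell with B. chinense, and 3 rose and 3 fell with P. umbellatus (4 and 3 without replicate 2). The receptor SMADs moved apart in A549, where SMAD2 fell (-0.48 ± 0.05, -0.41 ± 0.05 and -0.46 ± 0.05) and SMAD3 rose (0.20 ± 0.05, 0.15 ± 0.05 and 0.27 ± 0.05) with each herb. With P. chinensis in Huh7, SMAD3 rose (0.51 ± 0.09) and SMAD4 fell (-0.43 ± 0.11). SMAD6, the other inhibitory SMAD, fell in Huh7 with P. chinensis (-0.57 ± 0.12) while SMAD7 rose. SMURF2, a ubiquitin ligase that acts with SMAD7, rose in A549 (0.25, 0.36 and 0.39 with the 3 herbs). Of the corepressors, SKIL fell in A549 (-0.21, -0.28 and -0.41) and rose in Huh7 with P. umbellatus (0.58, 0.41 without replicate 2), and SKI rose in A549 with B. chinense (0.27). TGIF2 fell in Huh7 with P. chinensis (-0.66) and P. umbellatus (-0.82, -0.70 without replicate 2), TGIF1 rose there with P. chinensis (0.43), and SMAD5, a BMP receptor SMAD, rose with P. umbellatus (0.31, 0.14 without replicate 2). The medians ran from -0.15 to 0.21.

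Of 19 other TGF-beta target genes tested in A549, 7 rose and 2 fell with P. chinensis, 7 rose and 1 fell with B. chinense, and 6 rose and 5 fell with P. umbellatus, and of 17 tested in Huh7, 8 rose and 2 fell with P. chinensis, 1 rose and 2 fell with B. chinense, and 6 rose and 3 fell with P. umbellatus (7 and 3 without replicate 2). ITGB6, an integrin subunit that activates latent TGF-beta, rose in Huh7 with P. chinensis (2.26 ± 0.37) from 7 to 9 counts in control to 31 to 59. ID1 and ID3, targets of BMP signalling that are also in the list, fell in A549 with P. umbellatus (-0.46 ± 0.05 and -0.66 ± 0.09). ITGA2, a collagen receptor subunit, rose in A549 with B. chinense (1.16) and P. umbellatus (1.47) and fell in Huh7 with P. chinensis (-0.34) and B. chinense (-0.31). SNAI2, a transcription factor of epithelial-mesenchymal transition, rose in A549 with P. chinensis (1.73). In Huh7 FN1 (fibronectin) fell with P. chinensis (-0.20), and with B. chinense ID2 rose (0.57) and CDKN2B, a cell cycle inhibitor, fell (-0.46). The medians ran from -0.10 to 0.56.

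CCN1, CCN2 and ANKRD1 also respond to the actin-regulated factors MRTF and SRF. The list of such targets used here also holds the genes of SRF and the MRTF factors themselves. Of its 15 genes tested in A549, 5 rose and 3 fell with P. chinensis, 3 rose and 1 fell with B. chinense, and 3 rose and 3 fell with P. umbellatus. In Huh7, of 16, 8 rose and 0 fell with P. chinensis, 0 rose and 0 fell with B. chinense, and 2 rose and 3 fell with P. umbellatus (1 and 3 without replicate 2). ACTA2, the smooth muscle actin, rose in A549 from a mean of 7.67 CPM to 42.8, 38.6 and 37.1 CPM (2.45 ± 0.13, 2.31 ± 0.13 and 2.24 ± 0.13). In Huh7 CNN1 (calponin) rose with P. chinensis from 13 to 24 counts in control to 118 to 175 (2.75 ± 0.37), and TAGLN (transgelin) rose from a mean of 6.77 to 18.7 CPM (1.45 ± 0.24). ACTB, the cytoskeletal actin, fell in A549 with P. chinensis (-0.20) and B. chinense (-0.17), and FHL2, a LIM protein, rose there with B. chinense (0.35) and P. umbellatus (0.42). TPM4, a tropomyosin, fell in A549 with P. chinensis (-0.45) and P. umbellatus (-0.42), where CNN2 also fell with P. umbellatus (-0.25). With P. umbellatus in Huh7, TPM2 (-0.73, -0.44 without replicate 2) and TPM4 (-0.71, -0.43) fell, VCL (vinculin) rose (0.31, 0.31), and the rise of FILIP1L (0.41) was lost without replicate 2 (adjusted p = 0.14). ACTA2 and TAGLN stand in both this list and the TGF-beta target list. The TGF-beta target list also shares LTBP2 and TGFB1 with the list of ligands, and SKIL with that of the SMADs. The calls of these genes count in both lists. The medians ran from -0.13 to 0.43.

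**Figure D5:**
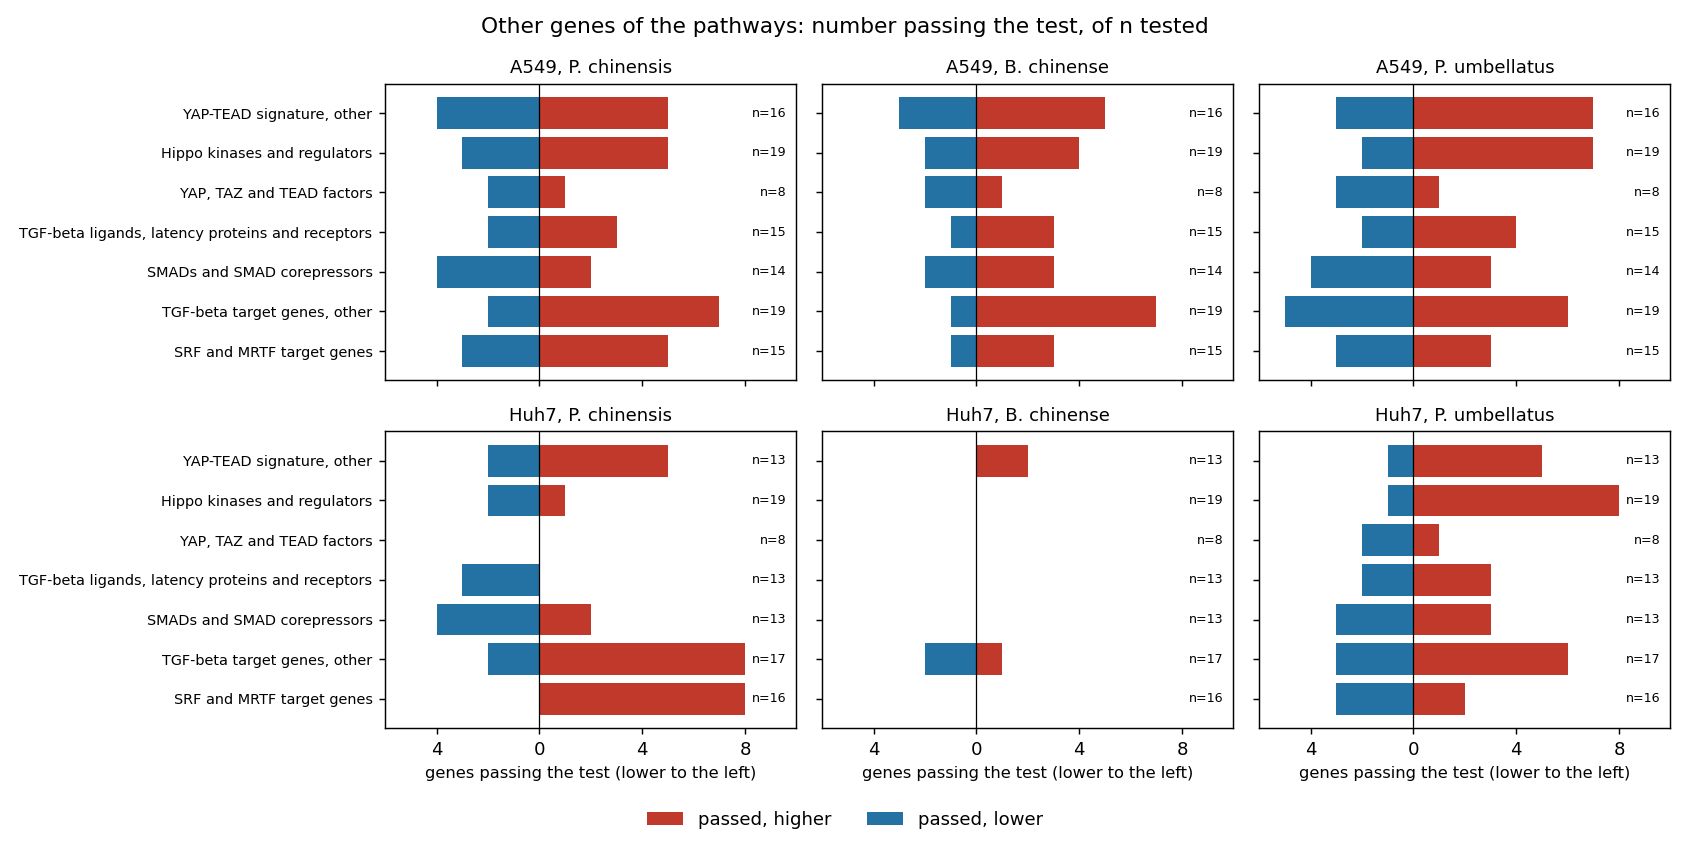
Number of genes of each list that passed the test, with rises to the right and falls to the left of 0 and the number tested at the right edge, for each herb (columns) and line (rows). In Huh7 with P. chinensis, 8 genes of the SRF and MRTF list rose and none fell, and with B. chinense 2 of the lists have any call.

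Markers of other cell types were set beside the genes above because CCN1, CCN2, TGFBI and TGFB2 are abundant in fibroblasts. The 7 fibroblast markers summed to 8.95 to 10.2 CPM in A549 control and to 10.1 to 12.2, 7.45 to 10.2 and 6.91 to 8.56 CPM with the 3 herbs, and COL1A2, COL3A1 and PDGFRB were at 0 in all A549 control libraries. In Huh7 the sum was 35.3 to 40.5 CPM in control and 42.4 to 52.3 with P. chinensis, against 32.3 to 32.7 and 31.5 to 36.4 with the others. COL1A1 and COL1A2 rose there with P. chinensis, where COL1A1 ranged from 13 to 163 counts per library. PECAM1, the 1 endothelial marker analysed here, was at 34.3 to 37.8 CPM in Huh7 control, 32.9 to 34.5 CPM with P. chinensis there, 1.65 to 1.93 CPM in A549 control and 2.50 to 3.04 with P. chinensis, and the 3 leukocyte markers analysed here summed to 31.9 to 34.4 CPM in Huh7 control and 42.1 to 45.0 with P. chinensis. With P. chinensis in Huh7 the hepatocyte markers had a lower sum than in control, at 13029 to 13866 CPM, in the same libraries in which 8 of the 9 genes rose. Their sum was 18926 to 19524 CPM with B. chinense and 19360.2 to 24386 CPM with P. umbellatus, and in A549 it was lower in each treated group (49.6 to 51.9, 51.4 to 56.9 and 48.4 to 59.4 CPM) than in control. The 6 A549 markers analysed here summed to 3983 to 4208 CPM in Huh7 control and 5318 to 5576 CPM with P. chinensis there. The leukocyte sum in A549 was 19.3 to 21.8 CPM in control and 28.1 to 29.3, 22.9 to 28.8 and 24.8 to 26.3 CPM with the 3 herbs. Of single markers in A549, FGB (a fibrinogen chain) and HNF4A (a hepatocyte transcription factor) fell (-2.35, -1.89 and -1.98 and -1.34, -1.18 and -1.23 on the log2 scale with the 3 herbs), as did KRT18 (-0.26, -0.27 and -0.30), while ALDH3A1, an aldehyde dehydrogenase, rose (1.09, 1.43 and 1.42). PDGFRA (1.09) and CD68 (0.57) rose there with P. chinensis. In Huh7 ALB (albumin) and APOB fell with P. chinensis (-0.69 and -0.89), where FGB rose (0.69), and APOA1 and TTR fell with P. umbellatus (-0.93 and -0.53, -0.70 and -0.51 without replicate 2). PDGFRB fell with P. umbellatus (-1.29), lost without replicate 2 (adjusted p = 0.0523). The part of any of these shifts in the results for the 9 genes was not tested.

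As a description of the patterns over the 6 comparisons with control, the genes closest to a member were sought by the root mean square difference of the log2 fold changes, among 9951 genes. Closest to CCN1 were TUBB3 (0.172) and MRAS (0.200), a neuronal tubulin and a RAS-related GTPase. Closest to CCN2 were KDM7A (0.0944) and NR5A2 (0.112), a histone demethylase and a nuclear receptor. For TGFBI they were PLEKHB2 (0.0443) and NMT2 (0.0444), for SMAD7 CCNL1 (0.0739) and BTN2A2 (0.143), and for TGFB2 S100A11 (0.0477) and ABRACL (0.0753). Of these 5 members CCN1 had the widest gap to its nearest gene and TGFBI the narrowest.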

How the data were processed

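RNA of 24 samples was sequenced after ribosomal depletion with a stranded kit, and the authors pseudoaligned the reads with kallisto to GRCh38.p13 transcripts. The deposited values are estimated counts per gene, already whole numbers, for 14585 genes. Whether kallisto was run with strand is not given in the sources used here, so reads from antisense genes cannot be told apart.

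The 9 genes and the other lists were chosen with earlier results of these data known. Counts were analysed with edgeR 4.0.16 in R 4.3.3, by the quasi-likelihood test with TMM scaling, a prior count of 2 and 1 coefficient per group. Genes with a mean above 5 counts were tested, 13633 in A549 and 13875 in Huh7, each line with its 12 libraries, and 12924 genes in both lines for the difference of responses. Control lines were compared over 24 libraries and 14584 genes. The Benjamini-Hochberg adjustment covered every gene tested, and 0.05 was the threshold. CPM are TMM-scaled within a line, and over 24 libraries for levels per kb and the line comparison. Groups followed the sample labels. The alternatives were DESeq2 1.42.0, RLE scaling, limma 3.58.1 voom with sample weights, a replicate block, no filter, a mean of 50 counts, the 6 libraries compared alone, and each replicate left out. List counts without replicate 2 of Huh7 P. umbellatus were added after seeing the data. All 9 genes are described in every comparison. Of each other list, the genes with the 2 largest rises and falls past the threshold in a herb comparison are named, each in at least 1 such comparison, beside YAP1, WWTR1, TEAD1 to TEAD4, TGFB1, SMAD2 to SMAD4, TGFBR1 and TGFBR2, and 1 further gene of this rule is not reported here. CCN5, CCN6 and PECAM1 were named after their values were seen. Tests were checked on simulated data. Each library is 1 RNA sample, and total counts of 6803704 to 24345541 set the precision.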

Additional observations from a re-analysis of the deposited data

Results flagged for a closer look

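The difference of a response between A549 and Huh7 passed its own test, edgeR's interaction of herb and line, in 8 cases among the 9 genes. With P. chinensis the log2 response in A549 minus that in Huh7 was 1.22 for CCN2, -0.98 for CCN1, -0.43 for AMOTL2 and -0.40 for LATS2. With B. chinense it was 0.93 for CCN2. With P. umbellatus it was 0.90 for CCN2, 0.73 for AJUBA and 0.48 for CCN1.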

How the results depend on the processing

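Over the 144 gene results there were 3090 values under alternatives, of which 2865 kept direction and side of the threshold, 91 lost the threshold, 65 gained it and 69 changed sign. The sign changes came from 19 results, none of them past the threshold in the reported fit. The cause of the changes below was not tested, except that fewer libraries leave fewer degrees of freedom.

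Counts that moved by over 1.5 times, or from or to 0, are given first. The shares of all genes called under these settings are not given beside them, so a moved count cannot be set against such a share. DESeq2 called 1 gene lower in A549 P. chinensis against B. chinense, 1 higher in P. chinensis against P. umbellatus, 1 higher in Huh7 B. chinense against control, 1 lower in Huh7 P. umbellatus against control (AJUBA) and 2 lower in Huh7 B. chinense against P. umbellatus. Voom called 1 higher in A549 P. chinensis against P. umbellatus, 3 higher in Huh7 B. chinense against control, 8 higher in Huh7 P. chinensis against B. chinense, 2 lower in Huh7 B. chinense against P. umbellatus and 3 higher for the B. chinense response between lines. With the 6 libraries alone the counts in Huh7 were 3 higher for B. chinense and 1 higher for P. umbellatus against control, 8 higher for P. chinensis against B. chinense, 0 lower for P. chinensis against P. umbellatus, and 0 higher and 0 lower for B. chinense against P. umbellatus. At a mean of 50 counts, 1 gene, AJUBA, was lower for Huh7 P. umbellatus against control and 0 lower for P. chinensis against P. umbellatus.

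Smaller moves include A549 P. umbellatus against control, where 4 became 6 in DESeq2 and 5 with RLE, the block, no filter, a mean of 50 counts and the 6 libraries, and the P. umbellatus response between lines, where 3 became 2 in voom.

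Over all genes tested in a line, deviations of same-numbered libraries correlated at -0.06 to 0.07 and those of other libraries at -0.06 to 0.08. No pairing by replicate number was seen at that scale, and a correlation over all genes cannot exclude it for some of them. With a replicate block, 0 genes were lower in A549 P. chinensis against P. umbellatus (CCN1 adjusted p = 0.0608) and 2 were lower in Huh7 B. chinense against P. umbellatus.

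Leaving out 1 replicate, the counts in A549 P. chinensis against P. umbellatus ran from 0 to 1 higher and 0 to 1 lower. In Huh7 they were 0 to 2 higher for B. chinense and 3 to 5 higher and 0 to 1 lower for P. umbellatus against control, 3 to 8 higher for P. chinensis against B. chinense, 0 to 1 lower for P. chinensis against P. umbellatus, and 1 to 2 higher and 0 to 3 lower for B. chinense against P. umbellatus. Between lines they were 1 to 2 higher and 2 to 5 lower for P. chinensis, 1 to 2 higher for B. chinense and 2 to 3 higher for P. umbellatus.

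Sign changes were close to 0 on the log2 scale. In A549, SMAD7 between P. chinensis and P. umbellatus was -0.0075 in DESeq2, -0.0066 with RLE and -0.0046 without filter, and AMOTL2 between P. chinensis and B. chinense was -0.0081 in voom. In Huh7 P. umbellatus against control, AMOTL2 was -0.019 in DESeq2, -0.020 with RLE, -0.0065 with the block, -0.0023 without filter, -0.034 at a mean of 50 counts and -0.032 with the 6 libraries, and SMAD7 was -0.0039 and -0.0036 in the last 2. CCN1 between B. chinense and P. umbellatus in Huh7 was -0.046 in voom, and the TGFBI difference between lines with P. umbellatus was -0.011 in DESeq2 and -0.012 with RLE.

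With 1 replicate left out the ranges that crossed 0 in A549 were -0.11 to 0.039 for TGFB2 (B. chinense against P. umbellatus), -0.028 to 0.12 and -0.020 to 0.084 for LATS2 (B. chinense and P. chinensis against control), -0.079 to 0.074 for AMOTL2, -0.10 to 0.047 for LATS2 and -0.046 to 0.042 for TGFBI (P. chinensis against B. chinense), and -0.053 to 0.070 for SMAD7 (P. chinensis against P. umbellatus). In Huh7 they were -0.087 to 0.12 for CCN1 (B. chinense against P. umbellatus), -0.046 to 0.058 for CCN2 and -0.040 to 0.042 for TGFB2 (B. chinense against control), -0.086 to 0.0052 for CCN2 (P. chinensis against control), and -0.083 to 0.15 for AMOTL2 and -0.051 to 0.15 for SMAD7 (P. umbellatus against control). Between lines they were -0.15 to 0.029 for AMOTL2 and -0.15 to 0.0010 for LATS2 with B. chinense, -0.028 to 0.48 for ANKRD1 and -0.0081 to 0.094 for TGFBI with P. chinensis, and -0.37 to 0.13 for ANKRD1 and -0.075 to 0.058 for TGFBI with P. umbellatus.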
